A study of Mus musculus with 8 samples.

Results

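Genes that mark macrophages and other blood cells were followed through the peak lists of a chromatin immunoprecipitation sequencing (ChIP-seq) study of mouse bone marrow mesenchymal stem cells. The 6 genes are Csf1r, Spi1, Ptprc, Itgam, Cd68 and Lyz2. A peak was counted for a gene when its midpoint fell in a fixed window of mouse build mm9 around it, 330 kb of windows in all. By this rule 72 of the 88367 peaks in all lists belonged to the 6 genes. The lists comprised KDM4B, a demethylase of lysine 9 of histone H3, H3K9me3, the repressive trimethyl mark on that lysine, and total histone H3, each with 1 list per genotype. Wild-type cells (WT) came from Prx1Cre; Kdm4bw/w mice and knockout cells (KO) from Prx1Cre; Kdm4bf/f mice, so both genotypes carried the Cre transgene and differed in the floxed Kdm4b allele. All cells were given 4 hours of osteogenic induction. The labels give no age, sex or number of animals, and the input sample of each genotype was not used here. Each group was 1 library, so there is no replicate check, no difference between genotypes could be tested, and every interval below covers counting error only.

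Csf1r encodes the receptor for macrophage colony-stimulating factor and Spi1 encodes PU.1, the transcription factor that directs myeloid development. Ptprc encodes CD45, the phosphatase on the surface of nucleated blood cells, and Itgam encodes CD11b, an integrin chain of myeloid cells. Cd68 encodes a lysosomal membrane glycoprotein abundant in macrophages, and Lyz2 encodes lysozyme M of macrophages and granulocytes. Mesenchymal stem cells are grown from marrow by adherence to plastic, and macrophages adhere as well, which is why these genes are commonly used to look for blood cells in such cultures. Prx1-driven Cre acts in limb mesenchyme, a different lineage from the blood. Peak lists hold no RNA, so whether blood cells were present was not measured, and binding in a few blood cells cannot be told apart from binding in the mesenchymal cells.

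PU.1 recognises purine-rich sites whose core, the PU box, is GAGGAA, and it acts on promoters of several myeloid genes. The promoters are printed below to show where this core stands in the genes the windows surround, with matches on either strand in capitals (TTCCTC is the core on the opposite strand). Of the 6 genes, 4 were matched in the RefSeq promoter table of build GRCm38.p6, which runs from 250 bases before to 50 bases after each annotated start. Spi1 and Csf1r were not matched. The entries are Ptprc at chr1:138175256-138175555 on the minus strand, Itgam at chr7:128062390-128062689 on the plus strand, Cd68 at chr11:69666121-69666420 on the minus strand and Lyz2 at chr10:117282223-117282522 on the minus strand. These positions are in GRCm38.p6 and cannot be set against the mm9 positions of the peaks, so whether a peak covered a promoter was not determined.
Ptprc: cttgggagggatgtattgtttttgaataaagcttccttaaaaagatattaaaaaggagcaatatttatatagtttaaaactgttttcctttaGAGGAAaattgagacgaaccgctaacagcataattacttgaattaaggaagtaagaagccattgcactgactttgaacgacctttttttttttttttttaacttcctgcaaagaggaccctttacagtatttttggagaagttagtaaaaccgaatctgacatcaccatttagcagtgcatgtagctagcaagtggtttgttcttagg
Itgam: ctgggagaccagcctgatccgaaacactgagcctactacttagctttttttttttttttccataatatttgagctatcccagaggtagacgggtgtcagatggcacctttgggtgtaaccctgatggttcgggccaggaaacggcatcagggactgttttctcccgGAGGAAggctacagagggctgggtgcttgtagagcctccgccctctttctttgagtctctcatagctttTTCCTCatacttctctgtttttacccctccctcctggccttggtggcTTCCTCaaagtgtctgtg
Cd68: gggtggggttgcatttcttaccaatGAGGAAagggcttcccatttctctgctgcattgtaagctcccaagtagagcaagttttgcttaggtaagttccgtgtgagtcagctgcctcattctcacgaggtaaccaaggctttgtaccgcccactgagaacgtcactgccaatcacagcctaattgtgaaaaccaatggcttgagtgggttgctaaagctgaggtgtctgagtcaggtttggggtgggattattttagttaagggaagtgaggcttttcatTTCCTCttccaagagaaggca
Lyz2: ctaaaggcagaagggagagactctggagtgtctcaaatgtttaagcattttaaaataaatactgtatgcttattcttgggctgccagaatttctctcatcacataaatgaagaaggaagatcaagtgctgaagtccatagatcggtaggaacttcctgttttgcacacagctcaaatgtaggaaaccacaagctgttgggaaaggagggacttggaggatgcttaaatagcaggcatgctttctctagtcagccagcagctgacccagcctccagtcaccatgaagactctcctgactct
The core occurred 3 times in the Itgam entry, 2 times in the Cd68 entry, 1 time in the printed Ptprc entry and 0 times in the Lyz2 entry. A second Ptprc entry, which overlaps the first, held 0. Of all 32851 promoter entries, 28.3% held at least 1 match, so a match in 3 of 4 genes is a description of these sequences and nothing was drawn from it about PU.1. CG dinucleotides numbered 6 in the Itgam entry, 4 in the printed Ptprc entry, 4 in Cd68 and 1 in Lyz2. The second Ptprc entry held 2. The median over all entries was 7, above each of these counts, and 47.9% of all entries held at most 6, the highest of them. Shares for the lower counts were not computed, so whether these promoters are set apart was not determined.

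The first comparison asked where KDM4B was recovered around these genes and whether that depended on the gene Kdm4b. In WT cells all 6 windows held KDM4B peaks, 58 in total (95% exact Poisson interval 44.0 to 74.98), and in KO cells none did. The WT peaks covered 85.6 kb, or 25.9% of the windows, against 0.941% of the genome span over which peaks of any list lay. Their density was 176 peaks per Mb (133 to 227), 14.1 times the 12.5 per Mb of the whole WT list. Neighbouring peaks of 1 locus are not independent, so this interval is too narrow. Joining peaks within 1 kb left 22 from 58 in the windows but 21695 from 32017 in the whole list. The ratio is therefore lower for joined peaks, for which it was not computed. The whole KDM4B KO list held only 35 peaks, which at even density would give 0.00450 peaks in 330 kb, so the empty KO windows repeat the shortness of that list and show nothing particular to these genes. The nearest KDM4B KO peak lay 7.54 Mb beyond the Spi1 window and 39.4 Mb beyond the Cd68 window, and the chromosomes of the other 4 genes had none.

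**Figure D1:**
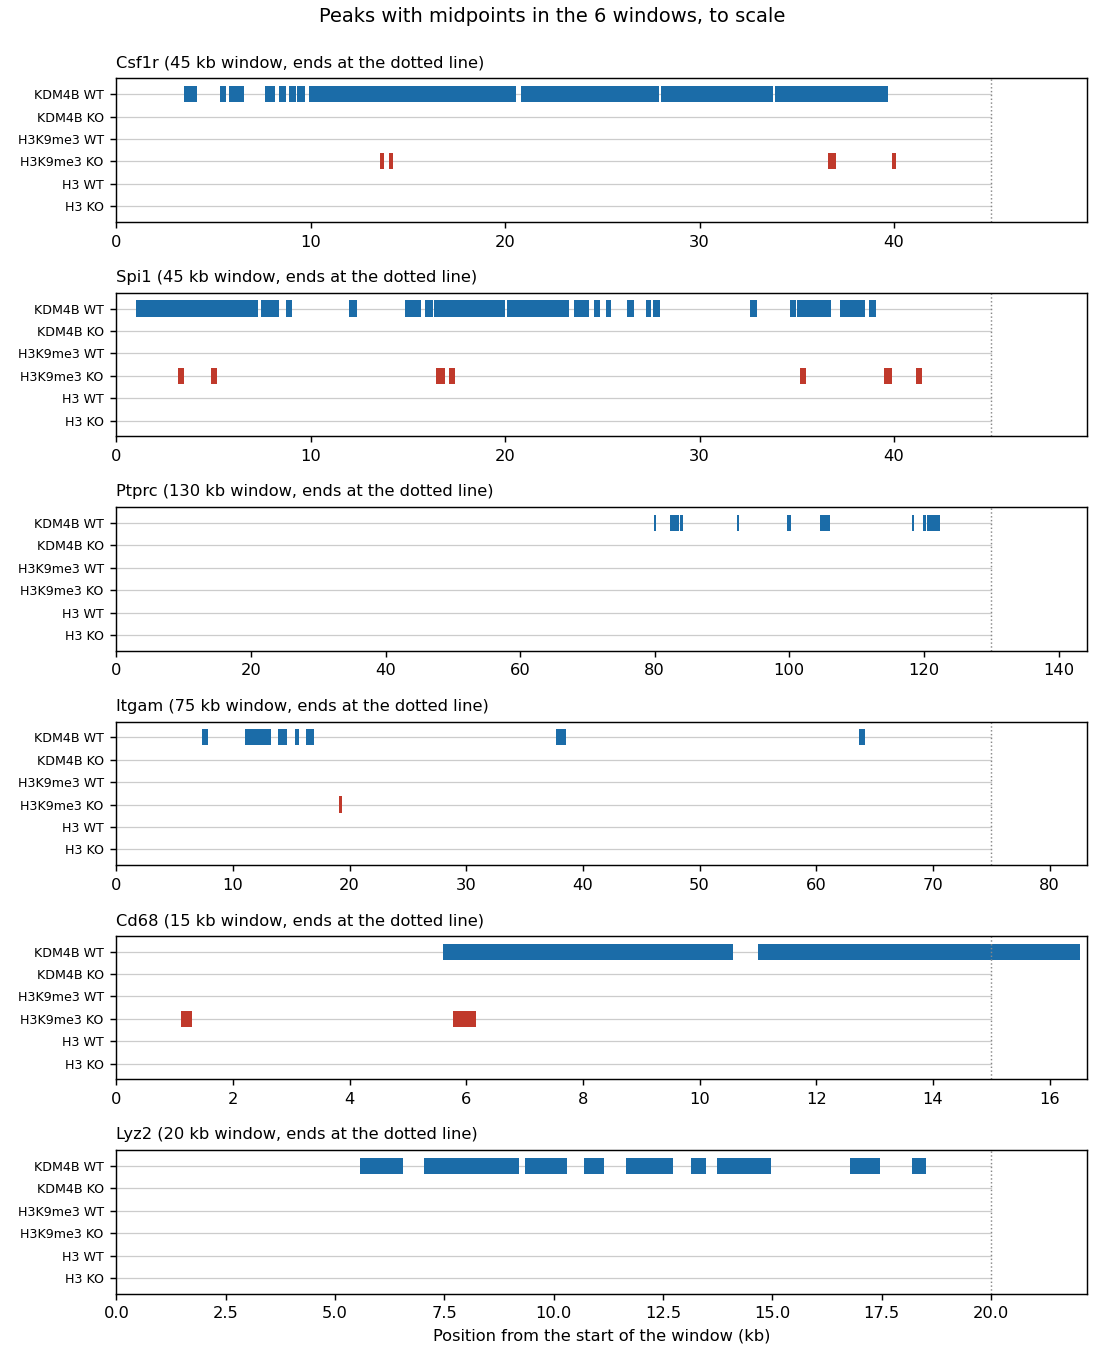
Peaks of the 6 lists drawn to scale in each window. The x axis gives kb from the start of the window, each row is 1 library, and bars are peaks. Blue KDM4B bars of WT cells fill 72.6% of the Csf1r window and 5.60% of the Ptprc window, red H3K9me3 bars of KO cells number 14, and the other 4 rows are empty.

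The Csf1r window carried the broadest KDM4B signal of the 6. It lies on chromosome 18 from 61255001 to 61300000 (45 kb) and held 11 KDM4B peaks (Poisson interval 5.49 to 19.7). These covered 32.7 kb, or 72.6% of it. The 4 widest followed one another almost without a break. They ran from 61264910 to 61275570 (10.7 kb), from 61275817 to 61282889 (7.07 kb), from 61283006 to 61288773 (5.77 kb) and from 61288861 to 61294697 (5.84 kb). The first of these was the 23rd widest of all 32017 KDM4B peaks. The other 7 were narrow, 306 to 728 bp, and lay on the lower-coordinate side. They ran from 61258465 to 61259157, 61260323 to 61260628, 61260820 to 61261547, 61262657 to 61263153, 61263385 to 61263704, 61263870 to 61264254 and 61264311 to 61264700. When peaks within 1 kb of each other were joined, 8 of the 11 formed a block of 32.0 kb from 61262657 to 61294697. That block was 96.5% filled and ranked 6 in length among the 21695 joined blocks of the list. Beyond the window the next KDM4B peak on the higher side was 36.1 kb away, and on the lower side 3.88 kb away. In gene order Csf1r lies between Pdgfrb and Hmgxb3. With no annotation of mm9 used here, the block could not be assigned to Csf1r or to a neighbour.

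Spi1 held the most KDM4B peaks as listed before any joining, 19 (11.4 to 29.7), in a window of the same size on chromosome 2 from 90920001 to 90965000. They covered 22.4 kb, or 49.9%, in separate blocks and not in 1 run. The widest peak, from 90920989 to 90927308, spanned 6.32 kb and began 0.988 kb inside the window. Next came peaks of 3.62 kb, from 90936357 to 90939978, and of 3.17 kb, from 90940096 to 90943266. Peaks within 1 kb of each other formed blocks of 8.03 kb, 13.1 kb and 4.41 kb, of which the 13.1 kb block, from 90934851 to 90947967, joined 10 peaks and ranked 88 in length. Peaks of 1.74 kb, from 90955026 to 90956765, and of 1.30 kb, from 90957223 to 90958525, stood near the higher end. The 14 narrow ones, 257 to 923 bp, ran from 90927468 to 90928390, 90928736 to 90929018, 90931947 to 90932376, 90934851 to 90935685, 90935896 to 90936270, 90943539 to 90944325, 90944561 to 90944890, 90945170 to 90945432, 90946265 to 90946649, 90947237 to 90947493, 90947613 to 90947967, 90952579 to 90952965, 90954651 to 90954963 and 90958691 to 90959059. In gene order Spi1 lies between Slc39a13, a zinc transporter, and Mybpc3, a heart muscle protein, and the block at the lower edge could not be assigned to Spi1 or to a neighbour.

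Cd68 had the fewest peaks and the second highest coverage. Its window on chromosome 11 from 69470001 to 69485000 is only 15 kb long, and 2 peaks covered 59.8% of it. One ran from 69475609 to 69480572 (4.96 kb) and the other from 69480998 to 69486517 (5.52 kb), passing the end of the window. They stood 425 bp apart, and joined they made a block of 10.9 kb that ranked 130 in length. Cd68 lies between Mpdu1, which serves protein glycosylation, and Eif4a1, a widely expressed translation initiation factor. With no annotation of mm9 used here, the peaks could not be divided among these neighbours.

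Lyz2 was covered by medium-sized peaks. In its 20 kb window on chromosome 10 from 116705001 to 116725000, 9 peaks (4.12 to 17.1) covered 8.22 kb, or 41.1%. They measured 326 bp to 2.17 kb, the widest from 116712032 to 116714205. The others ran from 116710575 to 116711564, 116714335 to 116715297, 116715705 to 116716148, 116716643 to 116717718, 116718141 to 116718475, 116718738 to 116719972, 116721780 to 116722458 and 116723178 to 116723503. When peaks within 1 kb were joined, 7 of the 9 went into a block of 9.40 kb, from 116710575 to 116719972, that ranked 197 in length. The next KDM4B peak was 43.4 kb beyond the window on the lower side and 12.9 kb beyond it on the higher side. Lyz1, the sister gene of Lyz2 that encodes lysozyme P, is its neighbour in gene order, and reads from near-identical stretches of this pair could be placed on either gene.

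Ptprc and Itgam had sparser KDM4B peaks, placed mostly on 1 side of their windows. The Ptprc window on chromosome 1 from 139950001 to 140080000 is the longest, 130 kb, and its 10 peaks (4.80 to 18.4) covered 7.28 kb, or 5.60%. All 10 lay in the last part of the window, between 140029877 and 140072409, and the first 79.9 kb held none. The widest, from 140070468 to 140072409, spanned 1.94 kb, and it was followed by 1.37 kb from 140032265 to 140033633 and 1.21 kb from 140054832 to 140056044. The 7 narrow ones, 241 to 664 bp, ran from 140029877 to 140030117, 140033714 to 140034179, 140042217 to 140042519, 140049644 to 140050307, 140054481 to 140054778, 140068285 to 140068580 and 140069789 to 140070272. RefSeq places Ptprc on the minus strand, so the gene starts at its higher-coordinate end, and the peaks lay in the higher-coordinate part of the window. Where the start falls in the mm9 window was not determined. In gene order Ptprc lies between Nr5a2 and Atp6v1g3, and the peaks could not be divided among these genes.

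The Itgam window on chromosome 7 from 135195001 to 135270000 held 7 KDM4B peaks (2.81 to 14.4), which covered 5.98 kb of 75 kb, or 7.97%. Of these, 5 lay in the first 17.0 kb of the window, the widest from 135206009 to 135208284 with 2.28 kb and the others from 135202383 to 135202829, 135208866 to 135209623, 135210297 to 135210679 and 135211278 to 135211981. The remaining ones, of 879 and 534 bp, stood alone at 135232693 to 135233571 and at 135258655 to 135259188. Itgam is on the plus strand, so the gene starts at its lower-coordinate end, and the cluster lay in the lower-coordinate part of the window. The start was not located in mm9 here either, and the side was not compared over all 6 genes. Its neighbours in gene order are Trim72, a membrane repair protein of muscle, and Itgax, which encodes CD11c, a related integrin chain of myeloid cells.

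KDM4B coverage was set beside that of tiles of the same width, laid end to end over the span of the lists. At least 1 KDM4B peak was held by 9.92% of 15 kb tiles, 12.2% of 20 kb tiles, 20.7% of 45 kb tiles, 27.6% of 75 kb tiles and 35.9% of 130 kb tiles, against 6 of 6 windows. Of the 57051 tiles of 45 kb, 5 were covered at least as much as the Csf1r window and 27 as much as the Spi1 window. Of 171177 tiles of 15 kb, 159 reached the Cd68 window, or 0.0929%, and of 128382 tiles of 20 kb, 275 reached the Lyz2 window, or 0.214%. The Itgam and Ptprc windows were less far out, since 2.83% of 75 kb tiles and 4.35% of 130 kb tiles were covered as much. Among only the tiles that held a KDM4B peak, those as covered as the window made up 0.0424% for Csf1r, 0.229% for Spi1, 0.936% for Cd68, 1.76% for Lyz2, 10.3% for Itgam and 12.1% for Ptprc. The windows were laid around genes and with earlier results of these data known, whereas tiles fall anywhere, so these shares describe the windows and are not a test.

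**Figure D2:**
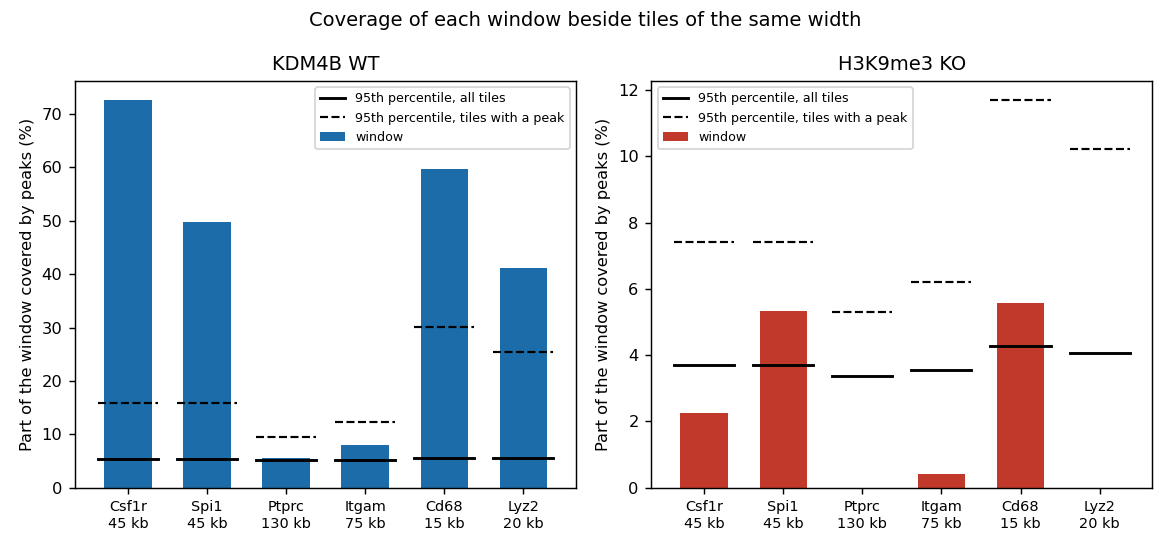
Percent of each window covered by KDM4B peaks of WT cells (left) and H3K9me3 peaks of KO cells (right). Bars are the windows, solid lines the 95th percentile of all tiles of the same width, and dashed lines the 95th percentile of tiles that hold a peak. For KDM4B the bars of Csf1r, Spi1, Cd68 and Lyz2 pass both lines and those of Itgam and Ptprc only the solid one, and for H3K9me3 no bar passes the dashed line.

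The windows held a larger share of very wide KDM4B peaks than the list as a whole. Those at least 3 kb long numbered 9 among the 58, or 15.5% (95% exact binomial interval 7.35 to 27.4%), against 603 of 32017, or 1.88%, in the whole list. They were 4 at Csf1r, 3 at Spi1 and 2 at Cd68, and Lyz2, Itgam and Ptprc had 0. Peaks from 1 kb to under 3 kb also numbered 9, or 15.5%, against 18.1% in the whole list, a share inside the interval. The median width was 672 bp in the windows and 509 bp in the list, and the smallest, at Ptprc, was 241 bp. Neighbouring peaks of 1 locus are not independent, so the intervals are too narrow for a statement about genes.

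KDM4B peaks were also counted in the surroundings of the windows. In the 500 kb on each side of the windows there were 250 KDM4B peaks over 6 Mb, or 41.7 per Mb. Each of the 6 pairs of flanks, with 16.0 to 61.0 per Mb, also exceeded the 12.5 per Mb of the list. The density in the window was 11.3 times that of its own flanks at Lyz2, 11.1 times at Spi1, 6.61 times at Csf1r, 4.81 times at Ptprc, 2.30 times at Cd68 and 1.53 times at Itgam. At Lyz2, Spi1, Csf1r and Ptprc the flank density lay below the Poisson interval of the window. These intervals treat adjoining peaks as independent and are therefore too narrow. Joining peaks within 1 kb left 2 at Lyz2, 5 at Spi1, 3 at Csf1r and 7 at Ptprc. The flanks were not recounted in this way, so the comparison of densities is a description. At Itgam, with 93.3 per Mb (37.5 to 192) against 61.0, and at Cd68, with 133 per Mb (16.2 to 482) against 58.0, it lay within the interval. For Cd68 the number of peaks understates the signal, because its window was 59.8% covered and its flanks 6.32%. In bins of 10 kb the coverage at Csf1r rose to 98.8% in the window and did not pass 9.94% in any of 44 bins outside it up to 250 kb from the centre, 39 of which had no KDM4B at all.

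**Figure D3:**
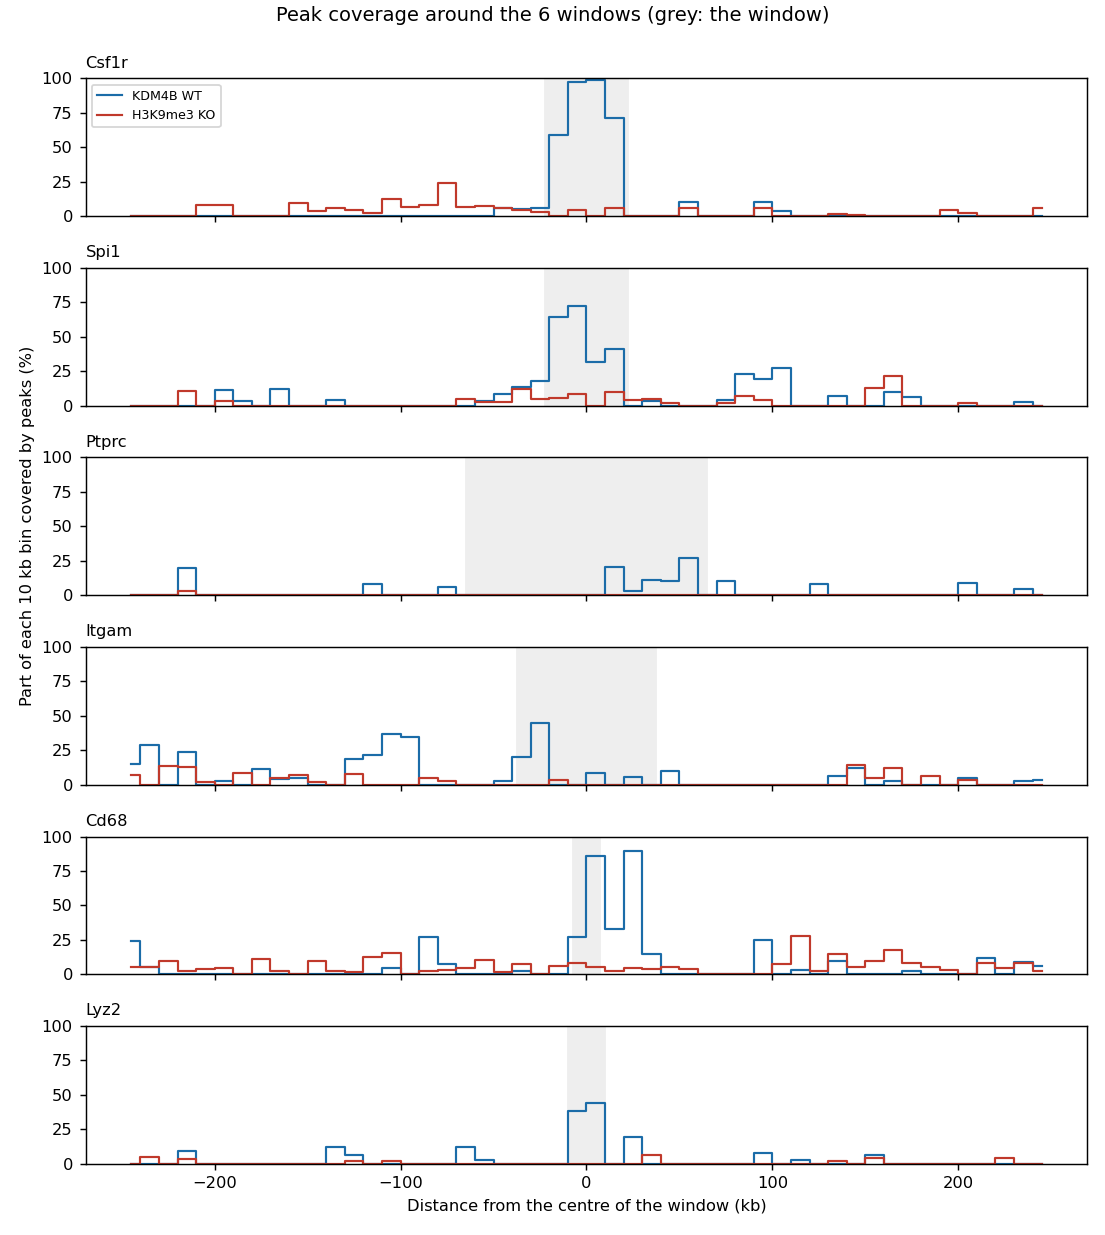
Percent of each 10 kb bin covered by peaks, against the distance in kb from the centre of the window (shaded), for KDM4B in WT cells (blue) and H3K9me3 in KO cells (red). KDM4B reaches 98.8% of a bin at Csf1r, 72.4% at Spi1, 44.5% at Itgam, 43.9% at Lyz2 and 27.2% at Ptprc inside the windows, and at Cd68 the highest bin, 89.8%, lies outside.

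The second comparison asked how H3K9me3 differed between genotypes at these genes. The mark had 0 peaks in the 6 windows in WT cells and 14 (Poisson interval 7.65 to 23.5) in KO cells. The windows were covered by KO peaks over 4.56 kb, or 1.38%, which includes the part of a peak that straddles the end of the Cd68 window with its midpoint outside. The whole lists held 943 peaks in WT and 55306 in KO, a ratio of 58.6. The WT list at its own density would place 0.121 peaks in 330 kb, so its 0 here carries no information on these genes. The nearest WT peak lay 518 kb beyond the Cd68 window and 684.5 kb beyond the Spi1 window, and at least 1897 kb beyond each of the other 4. Sequencing depth and calling thresholds are not known for either H3K9me3 list.

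The 14 KO peaks were unevenly spread. Spi1 held 7 (2.81 to 14.4), Csf1r 4 (1.09 to 10.2), Cd68 2, Itgam 1, and Ptprc and Lyz2 held 0. At Spi1 they fell near both ends and in the middle of the window, from 90923166 to 90923469, 90924874 to 90925160, 90936435 to 90936916, 90937092 to 90937430, 90955150 to 90955456, 90959513 to 90959923 and 90961155 to 90961421. The third of these, 482 bp, was the widest in any of the 6 windows. At Csf1r a pair lay close together, from 61268547 to 61268763 and from 61269025 to 61269223, and the others from 61291621 to 61292020 and from 61294925 to 61295123. The Cd68 peaks ran from 69471106 to 69471304 and from 69475773 to 69476174, and the Itgam peak from 135214064 to 135214375. All 14 were narrow, 199 to 482 bp with a median of 306 bp, against a median of 256 bp in the whole list.

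A KO peak with no WT peak, the state of the Csf1r, Spi1, Itgam and Cd68 windows, was common in the genome. It was found in 15.9% of 15 kb tiles, 18.9% of 20 kb tiles, 29.2% of 45 kb tiles, 36.5% of 75 kb tiles and 45% of 130 kb tiles. As many KO peaks as in the window were held by 3.90% of 45 kb tiles for Spi1 and 8.52% for Csf1r, by 7.27% of 15 kb tiles for Cd68 and by 37.5% of 75 kb tiles for Itgam. The density in all windows together was 42.4 per Mb (23.2 to 71.2), 1.97 times the 21.5 per Mb of the list. Spi1 alone held 7 of the 14 peaks, and neighbouring peaks are not independent. The interval is therefore too narrow, and no excess over the list was drawn for the genes as a group. Against the 73.7 per Mb of the flanks the density in the windows was 0.576 times, but these densities are not weighted alike. Flanks count equally for every gene, whereas windows count by length, so the 130 kb Ptprc window with its sparse flanks weighs most. No shortfall of the windows was drawn from this ratio, and the genes are compared singly below.

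Only at Spi1 did the flank density lie below the window's interval, with 156 per Mb (62.5 to 321) in the window against 44.0 in the flanks. At Csf1r the window had 88.9 per Mb (24.2 to 228) and the flanks 123, and at Cd68 133 per Mb (16.2 to 482) and 151. Itgam went the other way, with 13.3 per Mb (0.338 to 74.3) in the window and 96.0 in the flanks. The windows without a KO peak were too short to show an absence. At Ptprc a count of 0 allows 23.1 peaks per Mb and the flanks had 3, and at Lyz2 it allows 150 per Mb and the flanks had 25. The nearest KO peak was 153 kb beyond the Ptprc window and 28.2 kb beyond the Lyz2 window.

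**Figure D4:**
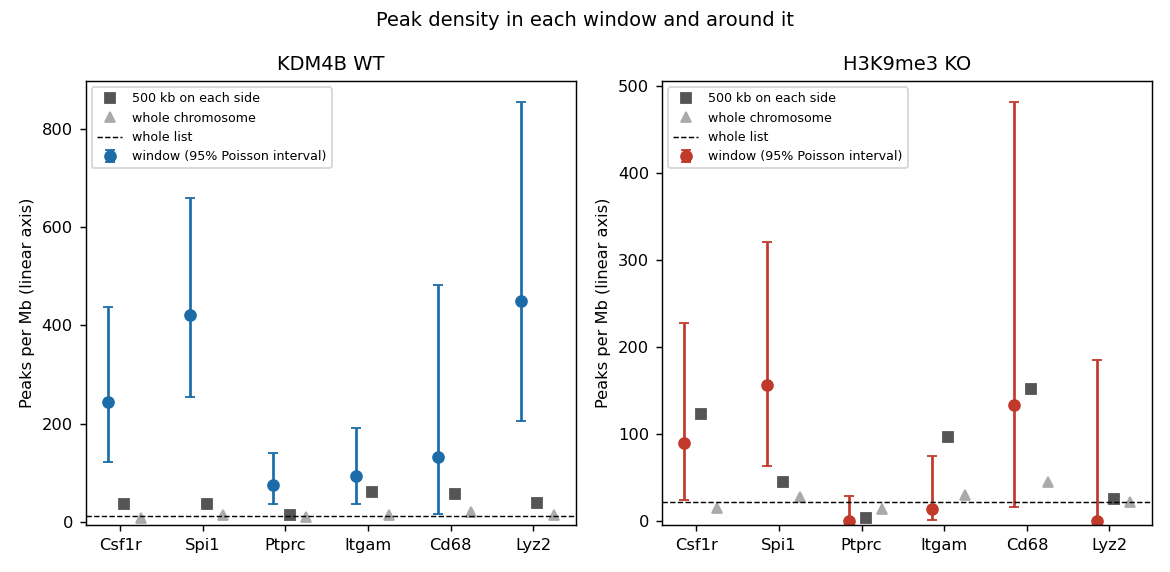
Peaks per Mb in each window (circles, with 95% exact Poisson intervals for counting error), in the 500 kb on each side (squares) and on the whole chromosome (triangles), for KDM4B in WT cells (left) and H3K9me3 in KO cells (right), with the whole list as a dashed line. KDM4B circles lie above the squares at all 6 genes, whereas for H3K9me3 only the Spi1 circle does.

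The third comparison asked whether the H3K9me3 peaks of KO cells lay on sites that KDM4B occupied in WT cells. Of the 14 KO peaks in the windows, 9 overlapped a KDM4B peak, or 64.3% (95% exact binomial interval 35.1 to 87.2%), against 15.7% of the whole KO list. They were 5 of 7 at Spi1, 3 of 4 at Csf1r, 1 of 2 at Cd68 and 0 of 1 at Itgam. Neighbouring peaks of 1 locus are not independent, so the interval is too narrow and the higher share is a description. KDM4B covered 25.9% of these windows and 0.941% of the whole span. By length, 67.9% of the KO H3K9me3 sequence lay inside KDM4B peaks, against 14.7% for the whole list. At Csf1r the share was 80.4% where KDM4B covered 72.6% of the window, at Spi1 71.7% against 49.9%, and at Cd68 66.9% against 59.8%. The 5 peaks that missed KDM4B had gaps to it of 227 bp at Csf1r, 453 and 2095 bp at Spi1, 1690 bp at Cd68 and 2082 bp at Itgam. Gaps between KDM4B peaks themselves were at most 1165 bp in the Csf1r window and 4611 bp in the Spi1 window. Distances for the whole KO list were not computed, so no nearness was drawn from these gaps.

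Seen from KDM4B, 7 of the 58 peaks overlapped a KO H3K9me3 peak, or 12.1% (4.99 to 23.3%), and the 22.8% of the whole list lay inside this interval. All 7 were 1 kb or wider. Among peaks of 3 kb or more the share was 6 of 9, or 66.7% (29.9 to 92.5%), close to the 69.3% of such peaks in the whole list. Among the 40 peaks under 1 kb it was 0, and a count of 0 allows a share of up to 7.5% (3 of 40), against 17.7% of such peaks in the whole list. The exact binomial limit is 8.81%. Neighbouring peaks of 1 locus are not independent, so both limits are too low, and a lower share at narrow peaks was not shown. The 7 lay at Spi1 (3), Csf1r (2) and Cd68 (2), where 1 of the pair met the straddling H3K9me3 peak, and none of the KDM4B peaks at Ptprc, Itgam or Lyz2 overlapped the mark. In WT cells 0 of the 58 overlapped H3K9me3, which by the same limit of 3 peaks allows up to 5.17%, against 0.0531% of the whole list.

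Total H3 gave no peak in any window in either genotype. The H3 lists held 38 WT and 28 KO peaks in all, and the nearest lay 7.54 Mb beyond the Spi1 window. At their own densities they would place 0.00488 and 0.00360 peaks in the 6 windows, so these lists cannot serve as a local background here. Depth was given for the WT library alone, which held 40420466 tags after filtering.

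The bounds of the windows decided a few memberships, and 5 peaks had their midpoint less than 1 kb outside. An H3K9me3 KO peak from 69484767 to 69485274 had its midpoint only 0.0200 kb past the end of the Cd68 window and was left out. Another, from 69469613 to 69469811, was 0.288 kb before the start of that window. A KDM4B peak from 135193928 to 135194830 was 0.621 kb before the Itgam window, one from 69469051 to 69469415 was 0.767 kb before the Cd68 window, and an H3K9me3 KO peak from 90919250 to 90919449 was 0.651 kb before the Spi1 window. The nearest midpoints inside were also at Cd68, 1.204 kb from the start for the H3K9me3 KO peak that begins at 69471106 and 1.24 kb from the end for the KDM4B peak that passes the end.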

How the data were processed

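Peak lists of KDM4B, H3K9me3 and total H3, 1 WT and 1 KO library each, were used as the authors deposited them. Per the submitters' processing notes, reads were aligned with Bowtie and handled with SAMtools, and MACS (KDM4B) or MACS2 (others) called the peaks, with mm9 and hg19 as listed builds. Only the H3 WT list states its settings. Per the file headers it came from MACS2 2.1.4 with a control and a q-value cutoff of 0.05, and its deposited columns give pileup signal (12 to 152), fold enrichment (1.63 to 16.6, a ratio over local background) and −log10 p- and q-values, which no window used. Depth, thresholds and pooling of the other lists, and any use of the yeast spike-in, are not known here.

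Starts in lists without a header were read as 0-based. Windows are in mm9, with no annotation of that build used here, and neighbours come from RefSeq GRCm38.p6 gene order. Overlap meant at least 1 shared bp, flanks were 500 kb on each side, and tiles covered each chromosome between its outermost peaks (2568 Mb). Intervals are 95% exact Poisson or Clopper-Pearson intervals, and the floor for a count of 0 was 3. By rule all 6 genes are named, with the position of each of their peaks. The genes, windows and neighbours were chosen with earlier results of these data known. Python 3.11.15, numpy 2.4.6 and, for intervals, scipy 1.17.1 were used, and the code was tested on simulated data. A wider list of blood genes needed an mm9 annotation and was not run. Some single bins outside the windows are not reported here.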

Additional observations from a re-analysis of the deposited data

How the results depend on the processing

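The number of KDM4B peaks in WT cells over the 6 windows, 58, fell to 22 when peaks within 1 kb were merged and to 31 when only peaks at or above the median width were kept, both by construction. It was 39 to 56 when 1 gene was left out, 72 with windows widened by 10 kb, and the same 58 by any overlap. The 14 H3K9me3 peaks of KO cells became 25 with windows widened by 10 kb and 7 without the Spi1 window, and were 10 to 15 under the other alternatives. The KDM4B KO, H3K9me3 WT and both H3 lists stayed at 0 in each of these settings. The share of KDM4B peaks overlapping KO H3K9me3 was 12.1% when 50% of the shorter peak had to be shared and 20.7% when a gap of up to 1 kb was allowed. Shifted tiles and autosomes alone kept the shares of tiles with a KDM4B WT peak, and with an H3K9me3 KO peak, within 1.5 times, and were not run for the other tile shares. At single genes, widening by 10 kb raised KDM4B from 7 to 12 peaks at Itgam and from 2 to 6 at Cd68, and H3K9me3 in KO cells from 7 to 12 at Spi1 and from 2 to 6 at Cd68. Merging within 1 kb lowered KDM4B from 11 to 3 peaks at Csf1r, from 19 to 5 at Spi1 and from 9 to 2 at Lyz2. It also lowered Itgam from 7 to 4 and Cd68 from 2 to 1. Ptprc went from 10 to 7 and then held more than Spi1, so the order of the genes by peak number depends on merging. No paired analysis was possible because each group holds 1 library. Peaks have no strength value in 5 of the 6 lists, so no stricter threshold could be applied, and narrow peaks cannot be told from weak ones.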

Other observations

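Outside the windows, coverage in bins of 10 kb had further maxima that belong to none of the 6 genes by the rule, and only those near Cd68 and Spi1 are described. Near Cd68 the bin centred 25 kb above the window centre was 89.8% covered by KDM4B in WT cells, more than the 85.9% of the highest bin touching the window. In RefSeq gene order Eif4a1 and Senp3 follow Cd68 on that side. Near Spi1 a bin centred 105 kb above the centre was 27.1% covered. The genes under these bins were not located in mm9.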
